A study of Mus musculus with 9 samples.

Results

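Tubulins, the proteins that bind and order microtubules, and the motors that walk along them were represented by 66 genes of the 11315 with a value. They were taken by name, as every listed symbol that begins with Tuba, Tubb or Tubg and a number, Tppp, Map1a, Map1b, Map2, Map4, Map7, Mapt, Mapre, Kif and a number, Dync, Dynl or Stmn. No cut on a measured value was applied, but the choice was made with earlier results of these data known. They comprised 13 tubulins, 2 tubulin polymerization promoting proteins, 6 structural microtubule-associated proteins, 3 end-binding proteins, 4 stathmins, 24 kinesins, the kinesin-binding protein gene Kif1bp, 7 dynein subunits and 6 dynein light chains. The cells came from brains of C57BL/6 mice at postnatal day 60 and were sorted by fluorescence for 1 of 3 reporters, PDGFRa::GFP, PLP::GFP or NDRG1-eGFP, with 3 RNA libraries for each. Each group takes the name of its reporter. The labels call PDGFRa-GFP cells oligodendrocyte progenitors, PLP-GFP cells pre-myelinating and NDRG1-eGFP cells myelinating oligodendrocytes. The labels do not give the transgene constructs, the number of mice behind a library or whether the libraries of a group came from separate mice, so p-values measure only the spread between these libraries. The comparisons ask how the microtubule genes differ between the sorted populations of a study whose title concerns myelinating oligodendroglia that express NDRG1.

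Microtubules are hollow polymers of alpha- and beta-tubulin dimers, nucleated on rings of gamma-tubulin. Oligodendrocytes extend them through long branched processes and through the cytoplasmic channels of the myelin sheath, where they serve as tracks for vesicles, organelles and messenger RNA such as that of myelin basic protein. Kinesins mostly move cargo towards the growing plus end and cytoplasmic dynein towards the minus end. TPPP, tau and other microtubule-associated proteins bundle or stabilise the polymer, end-binding proteins ride its growing tip, and stathmins bind free dimers and promote disassembly.

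Several tubulin genes are near-identical copies, which matters for every tubulin value below, because a read from a shared stretch fits more than 1 gene. The sequences of 90 coding bases each, from GENCODE M21 transcripts on build GRCm38, also called mm10, give an example. Each stretch was picked for the fewest differences among the near-identical copies. Ties went to the most differences in the last gene shown. The stretches therefore show where the copies are most alike, and are not typical of whole transcripts. For alpha-tubulin they cover coding positions 133 to 222 in exon 2, at chr15:98951473-98951562 for Tuba1a and chr15:98932977-98933066 for Tuba1b, both on the minus strand, at chr15:99034223-99034312 on the plus strand for Tuba1c, and at chr1:75217216-75217305 on the minus strand for Tuba4a. They are written 5′ to 3′, with capitals where a base differs from Tuba1a.
Tuba1a: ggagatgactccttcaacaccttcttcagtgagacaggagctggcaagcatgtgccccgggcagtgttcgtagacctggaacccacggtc
Tuba1b: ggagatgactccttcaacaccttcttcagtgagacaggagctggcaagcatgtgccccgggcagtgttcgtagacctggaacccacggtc
Tuba1c: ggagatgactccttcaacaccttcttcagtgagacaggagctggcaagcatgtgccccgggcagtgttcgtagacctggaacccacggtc
Tuba4a: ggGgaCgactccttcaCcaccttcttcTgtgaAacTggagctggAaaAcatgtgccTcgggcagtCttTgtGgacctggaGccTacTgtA
Tuba1a, Tuba1b and Tuba1c were identical over these 90 bases, and Tuba4a differed at 16.

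For beta-tubulin the stretch covers coding positions 907 to 996 in exon 4, all on the minus strand, at chr13:34074810-34074899 for Tubb2a, chr13:34127813-34127902 for Tubb2b, chr2:25222650-25222739 for Tubb4b and chr17:57081029-57081118 for Tubb4a. Capitals mark differences from Tubb2a.
Tubb2a: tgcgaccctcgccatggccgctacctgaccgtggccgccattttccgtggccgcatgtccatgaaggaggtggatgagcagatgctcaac
Tubb2b: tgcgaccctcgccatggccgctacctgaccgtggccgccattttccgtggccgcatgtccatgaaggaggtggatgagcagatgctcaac
Tubb4b: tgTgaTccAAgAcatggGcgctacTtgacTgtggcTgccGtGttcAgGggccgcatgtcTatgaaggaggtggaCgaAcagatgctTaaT
Tubb4a: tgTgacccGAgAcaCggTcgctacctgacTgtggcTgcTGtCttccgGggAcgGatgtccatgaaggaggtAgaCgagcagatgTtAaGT
Tubb2a and Tubb2b were identical here, while Tubb4b differed at 18 bases and Tubb4a at 20.

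Over whole transcripts, 61.6% of the 50-base windows of Tuba1a, 66% of those of Tuba1b and 52.7% of those of Tuba1c also occurred in a gene elsewhere. The partners were each other, processed pseudogenes and, for Tuba1c, the coding gene model Gm49450. The share was 49.6% for Tubb2a and 36.9% for Tubb2b, which share with each other and with a pseudogene. It was 37.8% for Tubb4b, whose partners were pseudogenes. Tubg1 (11.1%) and Tubg2 (14.3%) share with each other, Stmn1 (17.9%) with a pseudogene, Dynlt1b (83.2%) with other copies of its own light chain gene, and Kif24 just passed the limit of 5% at 5.03%. These 11 genes are called shared. Counts over the 66 genes include them, and counts of calls without them are also given below. How the authors treated reads that fit more than 1 place is not given in the sources used here. The other 55 genes, Tubb4a, Tubb3, Tubb5, Tubb6 and Tuba4a among them, shared 5% of their windows or less.

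Every value is a normalized level as deposited, running from 0.29 to 21.87. The scale is not named in the sources used here and was read as log2 from this range, so a difference of 1 is taken as a doubling. Read depth is unknown. Myelin markers were high in all 9 libraries, with summed levels of 22.41 to 22.71 over 9 genes. Pdgfra was at 6.87, 7.54 and 5.47 in PDGFRa-GFP, 1.52, 4.98 and 1.63 in PLP-GFP and 5.85, 4.98 and 6.26 in NDRG1-eGFP cells, higher in the first than the second (log2 fold change -3.92 from PDGFRa-GFP to PLP-GFP, adjusted p = 0.0274). It was also higher in NDRG1-eGFP than PLP-GFP cells (2.99, adjusted p = 0.0307). Between NDRG1-eGFP and PDGFRa-GFP cells it was not called (-0.93, adjusted p = 0.529). In the PDGFRa-GFP libraries 6 of 7 progenitor markers had a mean under 8, so most defining markers of the labelled cell type were low. PDGFRa-GFP replicate 3 stood apart from the other 2 libraries of its group, with correlations of 0.931 and 0.935 to them against 0.982 between those 2. Compared with both, it was lower by more than 0.5 in 21 of the 66 genes (31.8%, against 17.8% of all genes) and higher by more than 0.5 in 12 (18.2%, against 20.0%). Those 21 genes had a median transcript length of 6258 bases and those 12 of 1780 bases. Fold changes also ran with transcript length over all genes and with shared sequence, and both are given beside the results they touch. Markers of other cells moved between groups as well: 7 of 8 microglial and 5 of 6 measured fibroblast-like markers were higher in NDRG1-eGFP than PLP-GFP cells, with summed levels of 12.56 to 13.08 against 11.45 to 12.05 and of 11.06 to 12.78 against 7.08 to 8.58. In PDGFRa-GFP libraries those sums were 11.91 to 12.55 and 12.25 to 13.03. Immediate early genes, which cell handling can induce, were higher in NDRG1-eGFP than PLP-GFP cells for 8 of 10 and lower in PLP-GFP than PDGFRa-GFP cells for 3 of 10, with summed levels of 13.9 to 17.78 in PDGFRa-GFP, 13.74 to 13.86 in PLP-GFP and 14.86 to 17.91 in NDRG1-eGFP. The part of these genes in the results below was not tested. In sorted bulk samples, fewer cells of a type and less RNA per cell cannot be told apart.

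Differences were tested with limma across all 11315 genes, and an adjusted p under 0.05 is a call. A second fit first removed from each library its smooth trend on transcript length, and is named by that step wherever it is given. Of the 66 genes, 30 were called in at least 1 of the 3 comparisons and 36 in none. For all genes that share was not counted, but 48.3% were called between NDRG1-eGFP and PLP-GFP alone. Between NDRG1-eGFP and PLP-GFP cells, 10 of the 66 (15.2%) were higher in NDRG1-eGFP cells and 15 (22.7%) lower, where the shares of all genes were 26.1% and 22.2%. The 25 genes called are 37.9% of the 66, against 48.3% of all genes. The median log2 fold change was -0.03 over the 66 and 0.08 over all genes.

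Between PLP-GFP and PDGFRa-GFP cells, 7 genes (10.6%) were higher in PLP-GFP and 5 (7.58%) lower, against 8.46% and 8.53% of all genes. The 12 called are 18.2% of the 66, where 17.0% of all genes were called. Without PLP-GFP replicate 2, or without PLP-GFP replicate 3, 1 gene was higher and 1 lower. Without PDGFRa-GFP replicate 3 the counts were 9 and 9, without PDGFRa-GFP replicate 2 they were 4 and 3, and without PLP-GFP replicate 1 they were 4 and 5. The shares of all genes called in fits that left out a library were not counted. Whether these changes are particular to the 66 genes is therefore unknown.

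Between NDRG1-eGFP and PDGFRa-GFP cells, 7 genes (10.6%) were higher in NDRG1-eGFP and 11 (16.7%) lower, against 10.7% and 10.4% of all genes. The 18 called are 27.3% of the 66, against 21.1%. Recentring each library by its median ratio to the gene means gave 4 higher and 11 lower. Without PDGFRa-GFP replicate 3, 13 were higher and 19 lower, with Tubg2 (0.55, adjusted p = 0.0329), Dynlrb1 (0.54, adjusted p = 0.0156), Mapre2 (0.33, adjusted p = 0.0361) and Kif3c (-0.34, adjusted p = 0.0144) among the genes that gained a call. Leaving out another library gave 1 to 5 higher and 8 or 9 lower, with 1 higher without NDRG1-eGFP replicate 1, 2 without NDRG1-eGFP replicate 2 or PDGFRa-GFP replicate 1, and 4 without NDRG1-eGFP replicate 3. Shares of all genes were not counted for these fits either. Each pair of comparisons has a group in common, so their values for 1 gene are not independent and are given side by side.

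By group means, 26 of the 66 genes (39.4%) had their highest level in NDRG1-eGFP cells, 22 (33.3%) in PLP-GFP and 18 (27.3%) in PDGFRa-GFP. Over all genes those shares were 46.1%, 37.0% and 16.9%. The lowest mean was in NDRG1-eGFP cells for 25 genes (37.9%), in PLP-GFP for 22 (33.3%) and in PDGFRa-GFP for 19 (28.8%), where all genes gave 32.3%, 38.6% and 29.1%. Over the 55 genes that are not shared, the highest mean was in these groups for 40.0%, 36.4% and 23.6%. The lowest was there for 34.5%, 30.9% and 34.5%.

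Among the alpha-tubulins, the 3 copies with identical stretches fell in NDRG1-eGFP cells, and Tuba1b and Tuba1c had the largest drops of the 66 genes against PLP-GFP. Tuba1a (chr15:98949837-98953703) was at 13.77, 13.89 and 14.68 in the PDGFRa-GFP libraries (replicates 1 to 3 in order, here and below), 13.66, 13.67 and 13.57 in PLP-GFP and 12.03, 11.83 and 11.56 in NDRG1-eGFP. All 3 NDRG1-eGFP libraries lay below the other 6. Tuba1a fell by 1.83 ± 0.22 (SE) on the log2 scale against PLP-GFP (adjusted p = 0.000166) and by 2.30 ± 0.22 against PDGFRa-GFP (adjusted p = 4.83e-05).

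Tuba1b (chr15:98931425-98934565) was at 9.71, 9.46 and 10.79 in PDGFRa-GFP, 9.95, 10.17 and 9.92 in PLP-GFP and only 1.55, 2.46 and 2.18 in NDRG1-eGFP cells. Its NDRG1-eGFP values sit near the lowest value of the table (0.29 to 0.32 in each library). Tuba1b fell by 7.95 ± 0.40 against PLP-GFP (adjusted p = 5.99e-07) and fell by 7.92 ± 0.40 against PDGFRa-GFP (adjusted p = 4.09e-07). Tuba1c (chr15:99029891-99038110) was at 6.29, 5.83 and 8.10, then 6.89, 7.13 and 7.17, and 3.28, 3.82 and 2.18 in NDRG1-eGFP. It fell by 3.97 ± 0.69 against PLP-GFP (adjusted p = 0.0012) and fell by 3.64 ± 0.69 against PDGFRa-GFP (adjusted p = 0.00532).

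Because reads could pass between these copies, the linear values of Tuba1a, Tuba1b and Tuba1c were also summed. The sum was at 13.86, 13.96 and 14.79 in PDGFRa-GFP, 13.78, 13.81 and 13.70 in PLP-GFP and 12.03, 11.84 and 11.56 in NDRG1-eGFP. It was lower in every NDRG1-eGFP library than in any other. Tuba1a makes up most of the sum, so this follows from the Tuba1a values and is no separate check. Reads counted for pseudogenes, or left out for fitting several places, would not be in the sum. Genes with shared sequence were lower in NDRG1-eGFP cells across the table: 47.8% of the 999 shared genes were called lower against PLP-GFP and 8.81% higher, compared with 19.7% and 27.7% of the 10272 others. Against PDGFRa-GFP, 45.4% of shared genes were lower and 2.2% higher, compared with 6.96% and 11.5% of the others. What part this has in the alpha-tubulin values was not tested. Tuba4a, the alpha-tubulin that shares 0.807% of its windows, was at 8.59 to 9.42, 8.53 to 9.08 and 8.78 to 9.15 in the PDGFRa-GFP, PLP-GFP and NDRG1-eGFP libraries, with overlapping groups and a log2 fold change of 0.13 between NDRG1-eGFP and PLP-GFP (adjusted p = 0.711).

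The beta-tubulins were led by Tubb4a (chr17:57080066-57087782), the beta-tubulin isotype whose mutations cause a hypomyelinating leukodystrophy. Its level per kilobase of transcript, 17.98 on the log2 scale, was the highest of the 66, and 99.9% of all genes had a lower level before division by length. Levels per kilobase, here and below, use the longest annotated coding transcript. They assume that the deposited values were not already scaled by length, which is not known. Tubb4a was at 18.84, 18.84 and 19.17 in PDGFRa-GFP, 19.28, 19.40 and 19.28 in PLP-GFP and 19.04, 19.17 and 19.17 in NDRG1-eGFP. The PLP-GFP libraries were above the rest by a small margin, and no comparison passed the test (log2 fold change 0.36 between PLP-GFP and PDGFRa-GFP, adjusted p = 0.0905). Without PDGFRa-GFP replicate 3 that difference was 0.47 (adjusted p = 0.021). With the length trend removed, Tubb4a was lower in NDRG1-eGFP than PLP-GFP cells, with a log2 fold change of -0.53 (adjusted p = 0.0195).

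Tubb4b, a shared and widely expressed isotype, was at 13.07, 13.13 and 13.79 in PDGFRa-GFP, 12.86, 12.85 and 12.94 in PLP-GFP and 12.67, 12.40 and 12.18 in NDRG1-eGFP. The 3 groups did not overlap, in descending order. The drop of 0.92 ± 0.20 from PDGFRa-GFP to NDRG1-eGFP passed the test (adjusted p = 0.0098), and the step from PLP-GFP did not (log2 fold change -0.47, adjusted p = 0.0713). Tubb2b rose by 1.2 ± 0.43 in NDRG1-eGFP against PLP-GFP cells (adjusted p = 0.0413), from 7.34, 7.99 and 8.07 to 9.58, 8.07 and 9.34. The groups met at 8.07, and the call was kept in 1 of 6 fits that left out 1 library, that without NDRG1-eGFP replicate 2; the others gave 0.91 to 1.34 (adjusted p = 0.0638 to 0.153), and removing the length trend 0.85 (adjusted p = 0.18). Tubb2a, its near-identical neighbour, was at 10 to 10.93 in all 9 libraries and was not called. Tubb2a and Tubb2b were lower in PLP-GFP than PDGFRa-GFP cells when PDGFRa-GFP replicate 3 was left out (-0.61 and -1.23, adjusted p = 0.0399 and 0.0486). Their summed value was 11.27, 11.18 and 10.66 in PDGFRa-GFP, 10.21, 10.67 and 10.62 in PLP-GFP and 11.36, 10.59 and 11.22 in NDRG1-eGFP, with overlapping groups.

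Tubb3, known as a neuronal isotype and used as a neuron marker, was well above the middle of the table, at 11.78, 11.84 and 12.41 in PDGFRa-GFP, 13.01, 11.57 and 11.76 in PLP-GFP and 12.05, 12.69 and 12.41 in NDRG1-eGFP. Its groups overlapped and it was called in no comparison. Of 12 neuron markers 8 were measured, with summed levels of 11.24 to 11.54, 11.95 to 12.13 and 11.41 to 11.74 in the 3 groups in the same order. The only one called was Eno2, lower in NDRG1-eGFP than PLP-GFP cells (log2 fold change -1.75, adjusted p = 0.000339) and higher in PLP-GFP than PDGFRa-GFP cells (2.04, adjusted p = 0.00117). Tubb5 was at 9.57 to 10.87 and Tubb6 at 5.08 to 7.23 over the 9 libraries, and neither was called, although Tubb6 was higher by 1.43 in NDRG1-eGFP than PDGFRa-GFP cells without PDGFRa-GFP replicate 3 (adjusted p = 0.0284).

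The gamma-tubulins nucleate microtubules, and both were slightly higher in NDRG1-eGFP cells. Tubg1 was at 11.33, 11.35 and 11.05 in PDGFRa-GFP, 11.12, 11.16 and 11.30 in PLP-GFP and 11.81, 11.70 and 11.61 in NDRG1-eGFP, which lay above the other 6. It rose by 0.51 ± 0.13 against PLP-GFP (adjusted p = 0.00961) and by 0.47 ± 0.13 against PDGFRa-GFP (adjusted p = 0.0331). Tubg2 was at 8.83, 9.15 and 9.01, then 8.89, 8.80 and 9.14, and 9.49, 9.62 and 9.50 in NDRG1-eGFP, again with no overlap. It rose by 0.59 ± 0.18 against PLP-GFP (adjusted p = 0.0191), a call lost without NDRG1-eGFP replicate 2, PLP-GFP replicate 1 or PLP-GFP replicate 2 (0.52 to 0.57, adjusted p = 0.0577 to 0.0819). In the fit without the length trend, the differences between NDRG1-eGFP and PLP-GFP were 0.04 for Tubg1 (adjusted p = 0.875) and 0.10 for Tubg2 (adjusted p = 0.68). Tubg1 against PDGFRa-GFP was 0.42 to 0.51 (adjusted p = 0.0513 to 0.107) without any 1 NDRG1-eGFP library or without PDGFRa-GFP replicate 1, and 0.24 with the length trend removed (adjusted p = 0.277).

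**Figure D1:**
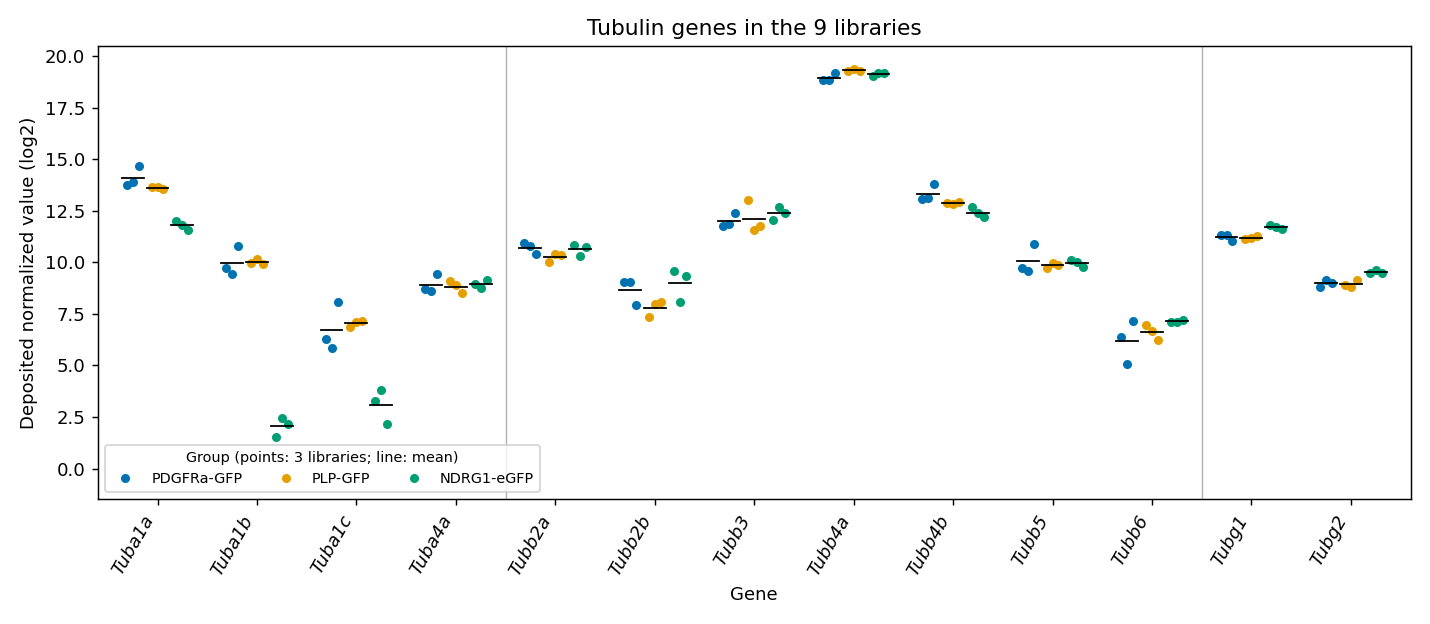
Deposited log2 values of the 13 tubulin genes, alpha, beta and gamma from left to right; each point is 1 of the 9 libraries, coloured by group, and each line is the mean of 3. Tuba1a, Tuba1b and Tuba1c are lowest in the 3 NDRG1-eGFP libraries, with Tuba1b at 1.55 to 2.46 there, while Tubb4a stays between 18.84 and 19.40 in all 9.

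The 2 tubulin polymerization promoting proteins moved in opposite directions between NDRG1-eGFP and PLP-GFP cells. Tppp (chr13:74009407-74035753), an oligodendrocyte protein that bundles microtubules and nucleates them at Golgi outposts, was at 16.97, 16.73 and 15.53 in PDGFRa-GFP, 17.26, 17.66 and 17.62 in PLP-GFP and 16.38, 16.61 and 16.61 in NDRG1-eGFP. The PLP-GFP libraries were above the other 6. Tppp rose by 1.11 ± 0.31 from PDGFRa-GFP to PLP-GFP (adjusted p = 0.036) and was lower by 0.98 ± 0.31 in NDRG1-eGFP than PLP-GFP, a log2 fold change of -0.98 (adjusted p = 0.0231). The first call was kept in 2 of 6 fits that left out 1 library and lost without PDGFRa-GFP replicate 2 or any 1 PLP-GFP library (1.03 to 1.27, adjusted p = 0.051 to 0.137). The second was also kept in 2 of 6, and lost without NDRG1-eGFP replicate 1 or 2 or PLP-GFP replicate 2 or 3 (-1.02 to -0.90, adjusted p = 0.053 to 0.0758). Without the length trend they were 0.84 (adjusted p = 0.0829) and -0.57 (adjusted p = 0.124).

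Tppp3 (chr8:105467493-105471526), a shorter relative that lacks the amino-terminal tail of TPPP, was at 15.05, 15.27 and 14.99 in PDGFRa-GFP, 15.01, 14.21 and 14.43 in PLP-GFP and 15.98, 15.62 and 16.03 in NDRG1-eGFP. All NDRG1-eGFP libraries were above the rest. It rose by 1.32 ± 0.20 against PLP-GFP (adjusted p = 0.000555), a 2.50-fold difference kept in 6 of 6 fits that left out 1 library, and by 0.78 with the length trend removed (adjusted p = 0.0148). Against PDGFRa-GFP it rose by 0.77 ± 0.20 (adjusted p = 0.0217), a call lost without NDRG1-eGFP replicate 1 or 3 or PDGFRa-GFP replicate 1 (0.70 to 0.75, adjusted p = 0.0597 to 0.0745) and with the length trend removed (0.59, adjusted p = 0.072). Per kilobase of transcript the mean levels of Tppp and Tppp3 were 14.47 and 14.70 on the log2 scale, above 99.1% and 99.2% of all genes.

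Of the 6 structural microtubule-associated proteins, 1 was called. Mapt (chr11:104231390-104332090) encodes tau, which in oligodendrocytes binds microtubules in the processes and the kinase Fyn. It was at 15.48, 15.50 and 15.10 in PDGFRa-GFP, 15.01, 15.05 and 15.16 in PLP-GFP and 15.55, 15.65 and 15.68 in NDRG1-eGFP, which lay above the other 6. Mapt rose by 0.55 ± 0.13 in NDRG1-eGFP against PLP-GFP cells (adjusted p = 0.00543), in every fit that left out 1 library. As a transcript of 5253 bases it belongs to a length range in which most genes were lower, and with the length trend removed the rise was 0.99 (adjusted p = 6e-05). It was also lower in PLP-GFP than PDGFRa-GFP cells, at -0.56, with that trend removed (adjusted p = 0.0111), and at -0.41 without PDGFRa-GFP replicate 3 (adjusted p = 0.0141), against -0.29 with all libraries as deposited (adjusted p = 0.139).

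Map1a, Map1b, Map2, Map4 and Map7 were called in no comparison. Map1a, a large stabilising protein of mature processes, was at 13.96 to 14.42, 14.10 to 14.25 and 13.52 to 14.16 in PDGFRa-GFP, PLP-GFP and NDRG1-eGFP. Map7, which recruits conventional kinesin to microtubules, was at 15.01, 15.19 and 13.50 in PDGFRa-GFP, 14.66, 14.66 and 14.88 in PLP-GFP and 14.51, 14.73 and 15.15 in NDRG1-eGFP. PDGFRa-GFP replicate 3 was the lowest of the 9 libraries for Map7, Map1b, Map2 and Map4. Map1b, a growth-associated relative of Map1a, was at 13.13, 13.29 and 11.75 in PDGFRa-GFP, 12.69 to 13.12 in PLP-GFP and 12.39 to 12.73 in NDRG1-eGFP. Map2, best known from dendrites, was at 11.04, 10.88 and 9.45, then 10.87 to 11.40, and 10.31 to 10.63. Map4, the ubiquitous member, was at 13.77, 13.81 and 12.52, then 13.74 to 13.93, and 13.35 to 13.99. Without PDGFRa-GFP replicate 3, Map1b and Map2 were lower in NDRG1-eGFP than PDGFRa-GFP cells, with log2 fold changes of -0.67 (adjusted p = 0.00602) and -0.48 (adjusted p = 0.0441), where all libraries gave -0.18 and 0.03 (adjusted p = 0.721 and 0.963).

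The end-binding proteins track growing plus ends and recruit other factors there, and 1 of the 3 was called. Mapre3, which encodes EB3, was at 12.48, 12.65 and 12.63 in PDGFRa-GFP, 12.64, 12.44 and 12.51 in PLP-GFP and 12.12, 11.96 and 12.08 in NDRG1-eGFP, below the other 6 in each library. It fell by 0.48 ± 0.12 against PLP-GFP (adjusted p = 0.00727) and by 0.53 ± 0.12 against PDGFRa-GFP (adjusted p = 0.0106), each in 6 of 6 fits that left out 1 library. Mapre1, which encodes EB1, was at 12.82 to 13.16 in all 9 libraries, and Mapre2, which encodes EB2, at 13.22 to 14 in PDGFRa-GFP and PLP-GFP and 14.19 to 14.40 in NDRG1-eGFP. Neither was called as deposited. Once the length trend was removed, Mapre1 was higher by 0.78 (adjusted p = 0.0019) and Mapre2 by 0.55 (adjusted p = 0.0227) in NDRG1-eGFP than PLP-GFP cells, and Mapre3 fell by 0.88 (adjusted p = 0.000143).

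Stathmins hold free tubulin dimers, and Stmn1 fell at both steps. Stmn1 (chr4:134468320-134473843) was at 16.23, 16.43 and 15.98 in PDGFRa-GFP, 15.64, 15.25 and 15.38 in PLP-GFP and 13.29, 13.42 and 13.11 in NDRG1-eGFP. The 3 groups did not overlap. It fell by 0.79 ± 0.15 from PDGFRa-GFP to PLP-GFP (adjusted p = 0.0114) and was a further 2.15 ± 0.15 lower in NDRG1-eGFP cells, a log2 fold change of -2.15 (adjusted p = 5.65e-06), a 4.44-fold difference. From PDGFRa-GFP to NDRG1-eGFP it fell by 2.94 ± 0.15 (adjusted p = 5.23e-07). The first of these calls was lost without PLP-GFP replicate 2 or 3 (-0.70 and -0.76, adjusted p = 0.0675 and 0.0563) and with the length trend removed (-0.31, adjusted p = 0.381), while both drops to NDRG1-eGFP kept their calls in each of these fits. A pseudogene shares 17.9% of the windows of Stmn1, so it belongs to the shared genes described above with the alpha-tubulins. From PDGFRa-GFP to PLP-GFP, 16.0% of shared genes were called lower and 4.0% higher, against 7.8% and 8.92% of the others.

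Stmn4, the stathmin with no shared copy and a level per kilobase above 99.6% of all genes, was at 15.88, 16.08 and 15.74 in PDGFRa-GFP, 15.63, 15.39 and 15.52 in PLP-GFP and 15.52, 15.62 and 15.64 in NDRG1-eGFP. The PDGFRa-GFP libraries were the highest, and no comparison passed the test as deposited (log2 fold change -0.39 from PDGFRa-GFP to PLP-GFP, adjusted p = 0.0541). Without PDGFRa-GFP replicate 3 it was -0.47 (adjusted p = 0.0156), and -0.39 against NDRG1-eGFP (adjusted p = 0.0187). Stmn2, known from neurons and itself on the list of neuron markers, was low at 4.46 to 7.42, and Stmn3, its neuronal relative, at 6.84 to 8.60. Neither was called with all libraries, and Stmn3 was higher by 0.90 in NDRG1-eGFP than PDGFRa-GFP cells without PDGFRa-GFP replicate 3 (adjusted p = 0.0459).

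**Figure D2:**
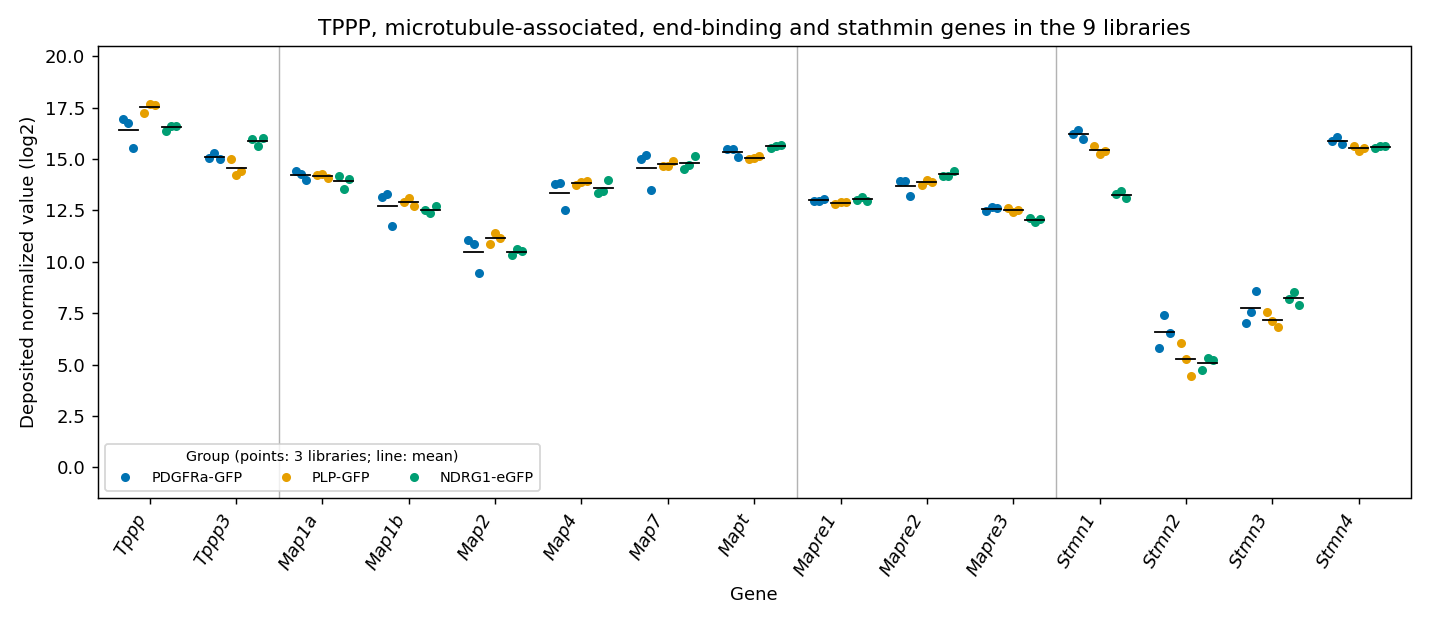
Deposited log2 values of the tubulin polymerization promoting, microtubule-associated, end-binding and stathmin genes; each point is 1 of the 9 libraries, coloured by group, and each line is the mean of 3. Stmn1 descends from 15.98 to 16.43 in PDGFRa-GFP to 13.11 to 13.42 in NDRG1-eGFP, Tppp is highest in PLP-GFP, Tppp3 is highest in NDRG1-eGFP, and PDGFRa-GFP replicate 3 is the low point of Map1b, Map2, Map4 and Map7.

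Among the 24 kinesins, 7 were lower and 1 higher in NDRG1-eGFP than PLP-GFP cells, and the median log2 fold change was -0.47, where 26.1% of all genes were called higher and 22.2% lower. Removing the length trend gave 3 higher and 4 lower kinesins and a median of 0.0. The lower ones were long transcripts of the kinesin-3 family and a few others. Kif13b (chr14:64647265-64809617), a kinesin-3 motor that carries membrane cargo and has been tied to the control of myelin thickness, was at 13.19, 12.97 and 12.14 in PDGFRa-GFP, 13.79, 14.14 and 14.07 in PLP-GFP and 11.54, 11.45 and 12.09 in NDRG1-eGFP. PLP-GFP libraries were above the rest and NDRG1-eGFP libraries below it. Kif13b rose by 1.23 ± 0.26 from PDGFRa-GFP to PLP-GFP (adjusted p = 0.0155) and was 2.30 ± 0.26 lower in NDRG1-eGFP than PLP-GFP, a log2 fold change of -2.30 (adjusted p = 0.000121). Without the length trend these were 0.99 (adjusted p = 0.0134) and -1.68 (adjusted p = 0.000112).

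Kif13a, its closest relative, was at 13.53, 13.33 and 12.52 in PDGFRa-GFP, 13.74, 13.88 and 13.91 in PLP-GFP and 12.45, 12.12 and 11.82 in NDRG1-eGFP, with the same order of groups and no overlap. It fell by 1.72 ± 0.24 from PLP-GFP to NDRG1-eGFP (adjusted p = 0.000425), and by 1.11 with the length trend removed (adjusted p = 0.00326). Against PDGFRa-GFP, Kif13b and Kif13a fell by 1.07 ± 0.26 and 1.0 ± 0.24 in NDRG1-eGFP cells (adjusted p = 0.0179 and 0.0181). Each of these 2 calls was kept in 2 of 6 fits that left out 1 library. Kif13b lost its call without NDRG1-eGFP replicate 1 or 2 or PDGFRa-GFP replicate 1 or 2 (-1.0 to -0.86, adjusted p = 0.0549 to 0.0729), and Kif13a without NDRG1-eGFP replicate 2 or 3 or PDGFRa-GFP replicate 1 or 2 (-0.99 to -0.80, adjusted p = 0.0558 to 0.0611).

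Kif1b (chr4:149176319-149307693), which moves mitochondria and vesicles and is needed to carry myelin basic protein messenger RNA into oligodendrocyte processes in zebrafish, had the highest level per kilobase of the kinesins, above 97.0% of all genes. It was at 16.77, 16.55 and 15.84 in PDGFRa-GFP, 17.10, 17.70 and 17.46 in PLP-GFP and 15.76, 15.58 and 16.04 in NDRG1-eGFP. The PLP-GFP libraries were above the other 6. It rose by 1.03 ± 0.24 from PDGFRa-GFP to PLP-GFP (adjusted p = 0.0217) and fell by 1.63 ± 0.24 from PLP-GFP to NDRG1-eGFP (adjusted p = 0.000544), or by 1.01 with the length trend removed (adjusted p = 0.00153). Without PDGFRa-GFP replicate 3, Kif1b was also lower in NDRG1-eGFP than PDGFRa-GFP cells (log2 fold change -0.87, adjusted p = 0.00541, against -0.59 and 0.105 with all libraries).

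Kif1a, the synaptic vesicle precursor motor of neurons, was at 15.28, 15.16 and 14.88 in PDGFRa-GFP, 15.66, 15.86 and 15.60 in PLP-GFP and 15.17, 14.98 and 15.16 in NDRG1-eGFP. It rose by 0.59 ± 0.13 from PDGFRa-GFP to PLP-GFP (adjusted p = 0.0193) and fell by 0.60 ± 0.13 from PLP-GFP to NDRG1-eGFP (adjusted p = 0.00468). Removing the length trend turned the second difference to 0.04 (adjusted p = 0.812), so the direction for Kif1a rests on how length is treated. Kif16b, an endosomal motor, went from 10.71, 10.71 and 10.10 to 11.16, 11.36 and 11.09 and down to 10.18, 10.49 and 10.53. Kif3c, a kinesin-2 subunit, went from 13.46, 13.34 and 12.68 to 13.73, 13.77 and 13.73 and down to 13.08, 13.00 and 13.08. Both were highest in all 3 PLP-GFP libraries. They fell by 0.80 ± 0.19 and 0.69 ± 0.18 from PLP-GFP to NDRG1-eGFP (adjusted p = 0.00673 and 0.00994), and these calls were lost with the length trend removed (-0.22 and -0.09, adjusted p = 0.243 and 0.633).

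Kif21b, which pauses microtubule growth as well as walking, was at 11.63, 11.76 and 10.54 in PDGFRa-GFP, 11.69, 11.95 and 11.57 in PLP-GFP and 10.29, 10.44 and 10.50 in NDRG1-eGFP. It fell by 1.33 ± 0.28 against PLP-GFP (adjusted p = 0.00323), by 0.70 with the length trend removed (adjusted p = 0.0246), and by 0.90 ± 0.28 against PDGFRa-GFP (adjusted p = 0.0423). That last call was kept in 1 of 6 fits that left out 1 library, that without PDGFRa-GFP replicate 3; the others gave -0.95 to -0.67 (adjusted p = 0.0776 to 0.132). Kif3a, the kinesin-2 subunit required for cilia, was the kinesin that moved the other way. It was at 13.36, 13.66 and 13.37 in PDGFRa-GFP, 12.90, 12.89 and 13.01 in PLP-GFP and 13.40, 13.48 and 13.95 in NDRG1-eGFP, lowest in all 3 PLP-GFP libraries. Kif3a rose by 0.68 ± 0.16 from PLP-GFP to NDRG1-eGFP (adjusted p = 0.00565), or by 0.62 with the length trend removed (adjusted p = 0.0112), after a drop of 0.53 ± 0.16 from PDGFRa-GFP to PLP-GFP (adjusted p = 0.0426).

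The other 16 kinesins, with mean levels from 3.28 to 13.29, were called in no comparison, and their log2 fold changes ran from -3.54 to 1.15. The lowest belongs to Kif26a, named for that and chosen after its values were seen, whose PLP-GFP libraries alone ran from 0.32 to 6.21. The heavy chains of conventional kinesin, likewise chosen after their values were seen, were also uncalled: Kif5b was at 12.48 to 12.83 in all 9 libraries, Kif5c at 10.01 to 11.10, and Kif5a at 11.29, 12.03 and 9.10 in PDGFRa-GFP, 11.36 to 11.62 in PLP-GFP and 10.13 to 11.39 in NDRG1-eGFP. Kinesins of cell division were low, with mean levels of 7.37 for Kif18a, 7.39 for Kif20a, 6.32 for Kif20b and 6.38 for Kif22. Of 10 markers of dividing cells 2 were measured, Mki67 and Top2a, with summed levels of 6.01 to 7.78, 3.06 to 6.62 and 4.85 to 5.63 in PDGFRa-GFP, PLP-GFP and NDRG1-eGFP. From PDGFRa-GFP to PLP-GFP cells 5 of the 24 kinesins rose and 1 fell, against 8.46% and 8.53% of all genes, and 2 and 2 with the length trend removed. In that fit Kif1a (0.31, adjusted p = 0.0902), Kif16b (0.38, adjusted p = 0.125) and Kif3c (0.27, adjusted p = 0.225) lost the call. Without PLP-GFP replicate 2 or without PLP-GFP replicate 3, Kif13b, Kif1b, Kif1a, Kif16b, Kif3c and Kif3a all lost that call, with adjusted p from 0.0598 to 0.159 and fold changes in the same direction. Kif16b, Kif3c and Kif3a also lost it without PLP-GFP replicate 1 or without PDGFRa-GFP replicate 2 (adjusted p = 0.0534 to 0.118). Kif1bp, whose protein binds and inhibits several kinesins and is no motor, was at 14.13, 13.92 and 14.34 in PDGFRa-GFP, 14.23, 14.20 and 14.25 in PLP-GFP and 14.55, 14.59 and 14.45 in NDRG1-eGFP. It rose by 0.40 ± 0.12 from PDGFRa-GFP to NDRG1-eGFP (adjusted p = 0.0427), a call kept in 1 of 6 fits that left out 1 library, that without PDGFRa-GFP replicate 3, and otherwise at 0.30 to 0.44 (adjusted p = 0.0632 to 0.137).

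Cytoplasmic dynein is built on a heavy chain with intermediate, light intermediate and light chains. Dync1h1 (chr12:110601452-110666945), the heavy chain gene, was at 14.22, 14.21 and 13.41 in PDGFRa-GFP, 14.31, 14.76 and 14.23 in PLP-GFP and 13.39, 13.28 and 13.45 in NDRG1-eGFP. The PLP-GFP libraries were the highest, and PDGFRa-GFP replicate 3 fell among the NDRG1-eGFP libraries. It was 1.06 ± 0.22 lower in NDRG1-eGFP than PLP-GFP, a log2 fold change of -1.06 (adjusted p = 0.00301), and fell by 0.46 with the length trend removed (adjusted p = 0.0265). Against PDGFRa-GFP the log2 fold change was -0.57 (adjusted p = 0.0873), and -0.84 without PDGFRa-GFP replicate 3 (adjusted p = 0.00226).

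Dync1i1, an intermediate chain known chiefly from neurons, went the other way from the PDGFRa-GFP cells. It was at 7.80, 7.90 and 7.66 in PDGFRa-GFP, 9.0, 9.55 and 8.95 in PLP-GFP and 8.86, 9.21 and 8.97 in NDRG1-eGFP, with all PDGFRa-GFP libraries below the other 6. It rose by 1.38 ± 0.23 in PLP-GFP (adjusted p = 0.0064) and by 1.23 ± 0.23 in NDRG1-eGFP (adjusted p = 0.00444) against PDGFRa-GFP, in 6 of 6 fits that left out 1 library each time. The ubiquitous intermediate chain gene Dync1i2 was at 12.80 to 13.12 in all 9 libraries. Dync1li1, a light intermediate chain, had a mean level of 11.80. Dync1li2, the other light intermediate chain and the most abundant dynein subunit before division by length, was at 14.21, 14.07 and 13.00 in PDGFRa-GFP, 14.33, 14.48 and 14.56 in PLP-GFP and 13.84, 14.22 and 14.22 in NDRG1-eGFP, and none of Dync1i2, Dync1li1 and Dync1li2 was called.

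The dynein of intraflagellar transport, which serves cilia, has its own heavy and light intermediate chains. Dync2h1 was at 10.29, 10.57 and 10.64 in PDGFRa-GFP, 9.80, 9.53 and 9.43 in PLP-GFP and 9.20, 9.72 and 9.70 in NDRG1-eGFP, highest in all PDGFRa-GFP libraries. It fell by 0.91 ± 0.20 in PLP-GFP (adjusted p = 0.0159) and by 0.96 ± 0.20 in NDRG1-eGFP (adjusted p = 0.00774) against PDGFRa-GFP. The first call was lost without PDGFRa-GFP replicate 2 or PLP-GFP replicate 2 or 3 (-0.89 to -0.84, adjusted p = 0.0507 to 0.0801), and the second with the length trend removed (-0.44, adjusted p = 0.214). Dync2li1 was at 8.74, 8.68 and 9.07, then 8.62, 8.49 and 8.64, and 9.61, 9.98 and 9.15 in NDRG1-eGFP, above the other 6. It rose by 0.99 ± 0.23 against PLP-GFP (adjusted p = 0.00588), or by 0.45 with the length trend removed (adjusted p = 0.111). The rise of 0.75 ± 0.23 against PDGFRa-GFP (adjusted p = 0.0435) was lost without NDRG1-eGFP replicate 1 or 2 or PDGFRa-GFP replicate 1 or 2 (0.56 to 0.74, adjusted p = 0.111 to 0.149).

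The dynein light chains are short transcripts, and against PLP-GFP cells 3 of the 6 rose and 1 fell in NDRG1-eGFP cells, against 26.1% and 22.2% of all genes. With the length trend removed 2 rose and 1 fell, and transcripts up to 2000 bases had a median log2 fold change of 0.70 over all genes. Dynll1 (chr5:115297110-115300999), the LC8 light chain and a hub protein beyond dynein, was at 13.54, 13.64 and 13.72 in PDGFRa-GFP, 12.22, 12.60 and 12.76 in PLP-GFP and 13.64, 13.48 and 13.64 in NDRG1-eGFP. PLP-GFP libraries lay below all others. It was 1.11 ± 0.15 lower in PLP-GFP than PDGFRa-GFP, a log2 fold change of -1.11 (adjusted p = 0.00221), and rose by 1.06 ± 0.15 from PLP-GFP to NDRG1-eGFP (adjusted p = 0.000347). Without the length trend these were -0.91 (adjusted p = 0.00891) and 0.66 (adjusted p = 0.0076).

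Dynlrb1, the roadblock light chain, had the same low point, at 12.99, 13.24 and 13.62 in PDGFRa-GFP, 12.77, 12.26 and 12.43 in PLP-GFP and 13.68, 13.67 and 13.61 in NDRG1-eGFP. It fell by 0.79 ± 0.18 in PLP-GFP against PDGFRa-GFP (adjusted p = 0.018), a call lost without PLP-GFP replicate 2 or 3 (-0.68 and -0.77, adjusted p = 0.0955 and 0.0775) and with the length trend removed (-0.22, adjusted p = 0.199). It rose by 1.17 ± 0.18 from PLP-GFP to NDRG1-eGFP (adjusted p = 0.000597), or by 0.79 with the length trend removed (adjusted p = 0.000326). Dynlt3, a Tctex-type light chain on the X chromosome, rose by 0.68 ± 0.17 against PLP-GFP (adjusted p = 0.00748), from 12.12, 12.20 and 12.14 to 12.86, 12.87 and 12.75, and by 0.69 ± 0.17 against PDGFRa-GFP, at 12.39, 12.29 and 11.72 (adjusted p = 0.0167). Without the length trend the first was 0.32 (adjusted p = 0.201), and the second was lost without NDRG1-eGFP replicate 1 or 2 (0.68 and 0.67, adjusted p = 0.055 and 0.0599).

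Dynll2, the other LC8 gene, ran against Dynll1. It was at 11.75, 11.97 and 11.91 in PDGFRa-GFP, 11.69, 11.67 and 11.75 in PLP-GFP and 11.35, 11.08 and 11.25 in NDRG1-eGFP, with NDRG1-eGFP below the other 6. It fell by 0.48 ± 0.13 against PLP-GFP (adjusted p = 0.00978) and by 0.65 ± 0.13 against PDGFRa-GFP (adjusted p = 0.00599), in 6 of 6 fits that left out 1 library each time. Removing the length trend gave -0.75 (adjusted p = 0.000927) and -0.84 (adjusted p = 0.000787). Dynlt1b, a Tctex-type light chain gene with 83.2% shared windows, was at 7.55, 7.74 and 9.04 in PDGFRa-GFP, 8.59, 7.53 and 7.85 in PLP-GFP and 8.64, 7.98 and 7.88 in NDRG1-eGFP, with overlapping groups and no call.

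Dynlrb2, a roadblock copy associated with ciliated cells, was low, at 3.02, 3.12 and 4.98 in PDGFRa-GFP, 5.21, 5.38 and 4.73 in PLP-GFP and 7.73, 5.82 and 5.73 in NDRG1-eGFP. It rose by 2.72 ± 0.79 from PDGFRa-GFP to NDRG1-eGFP (adjusted p = 0.0352), a call lost without NDRG1-eGFP replicate 1 (2.06, adjusted p = 0.13), NDRG1-eGFP replicate 2 (3.02, adjusted p = 0.0617), PDGFRa-GFP replicate 1 (2.37, adjusted p = 0.0996) or PDGFRa-GFP replicate 2 (2.43, adjusted p = 0.0916). NDRG1-eGFP replicate 1 also held the highest values of the ependymal genes Ccdc153 (8.69, against 0.95 to 5.73 in the other 8 libraries), Tmem212 (8.49, against 1.42 to 6.18) and Rsph1 (8.13, against 2.05 to 5.56). The other measured ependymal and ciliary markers were not highest in that library. Foxj1 was lower there than in any PDGFRa-GFP or PLP-GFP library. Spef2 was at 7.41 there, against 8.48 in NDRG1-eGFP replicate 2. Ccdc39 was at 7.25, against 7.89 in NDRG1-eGFP replicate 3, and Cfap126 at 6.54, against 6.56 in PDGFRa-GFP replicate 3. Over the 7 measured of 10 ependymal and ciliary markers, summed levels were 10.95 to 11.30 in PDGFRa-GFP, 10.72 to 11.08 in PLP-GFP and 10.57 to 11.21 in NDRG1-eGFP, and 1 of the 7, Foxj1, was called lower and none higher in NDRG1-eGFP. What part such cells have in the Dynlrb2 value was not tested.

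**Figure D3:**
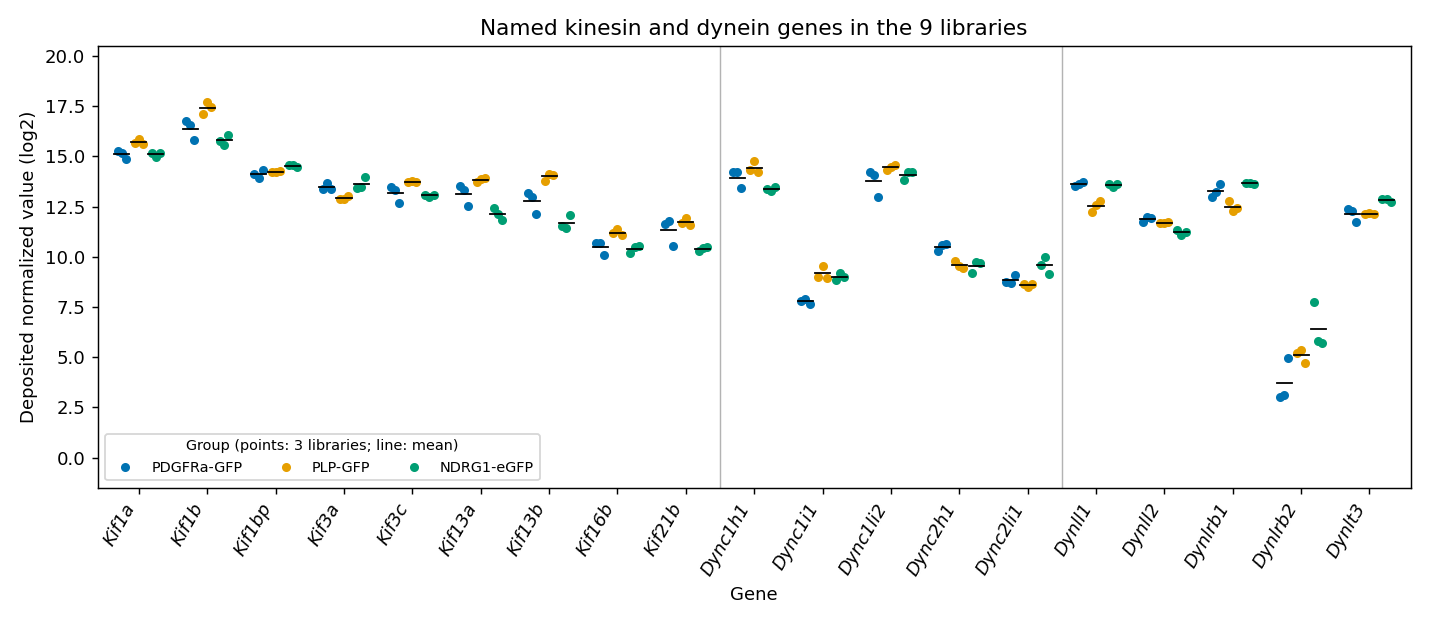
Deposited log2 values of the kinesin genes and Kif1bp (left), dynein subunits (middle) and dynein light chains (right) that passed the test in a comparison, with Dync1li2 added; each point is 1 of the 9 libraries, coloured by group, and each line is the mean of 3. Kif13a, Kif13b and Kif1b are highest in PLP-GFP and lowest in NDRG1-eGFP, Dynll1 and Dynlrb1 are lowest in PLP-GFP, and Dynlrb2 spreads from 3.02 to 7.73.

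The direction of many calls ran with transcript length, and this class of genes holds both long motors and short light chains. Between NDRG1-eGFP and PLP-GFP, the 10 genes called higher had a median transcript length of 1916 bases and the 15 called lower of 6404 bases, where all called genes gave 1984 and 4886 bases. Over all genes the median log2 fold change fell from 0.70 for transcripts up to 2000 bases to 0.20 up to 4000, -0.36 up to 6000 and -0.64 above 6000. The 66 genes gave 0.39, 0.12, 0.06 and -0.63 in the same ranges. From PDGFRa-GFP to PLP-GFP the trend ran the other way, from -0.39 to 0.32 over all genes and from -0.24 to 0.48 over the 66.

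**Figure D4:**
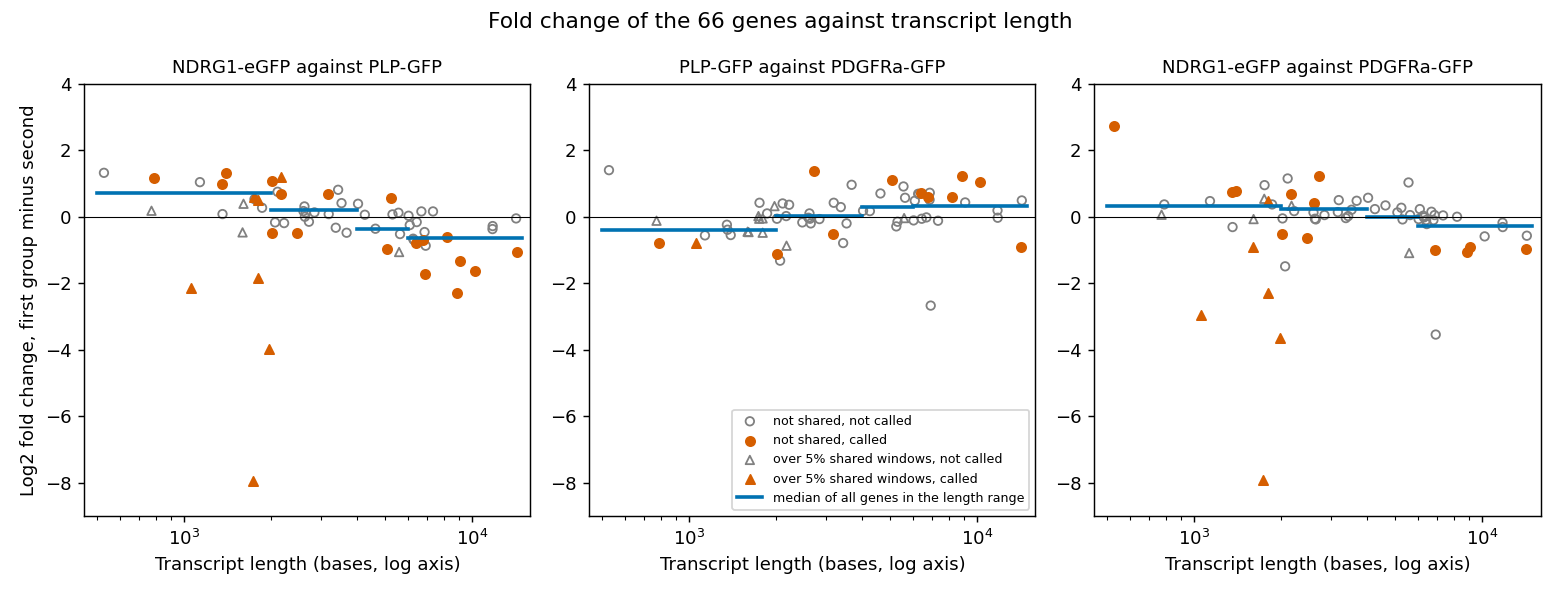
Log2 fold change against transcript length (log axis) for the 66 genes in the 3 comparisons; filled orange symbols passed the test, triangles are the 11 genes with over 5% shared windows, and blue lines are medians of all genes in 4 length ranges. In the left panel the blue lines step down from 0.70 to -0.64, and the called triangles at the bottom are Tuba1a, Tuba1b, Tuba1c and Stmn1.

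After each library's smooth trend on transcript length was removed, the NDRG1-eGFP cells had 9 of the 66 genes higher and 13 lower compared with PLP-GFP, against 18.1% and 15.6% of all genes with a length. Of the genes named above, Tppp, Kif1a, Kif3c, Kif16b, Tubg1, Tubg2, Tubb2b, Dynlt3 and Dync2li1 lost the call, and Tubb4a, Tubb4b, Mapre1 and Mapre2 gained one. The gain also reached Kif5b and Kif21a (log2 fold changes of 0.58 and 0.42, adjusted p = 0.00435 and 0.00907), which are named because they changed here and were chosen after their values were seen. From PDGFRa-GFP to PLP-GFP the counts were 3 higher and 5 lower, against 3.58% and 4.25%, and from PDGFRa-GFP to NDRG1-eGFP 6 higher and 9 lower, against 8.89% and 9.01%. In the last comparison Dynlt3 (0.50, adjusted p = 0.0864), Dync2li1 (0.59, adjusted p = 0.072), Kif21b (-0.51, adjusted p = 0.113) and Kif1bp (0.24, adjusted p = 0.156) lost their calls, besides Tubg1, Tppp3 and Dync2h1 as given above. Kif1a was then higher in NDRG1-eGFP than PDGFRa-GFP cells (0.35, adjusted p = 0.0407), where the deposited values gave an adjusted p of 0.982.

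**Figure D5:**
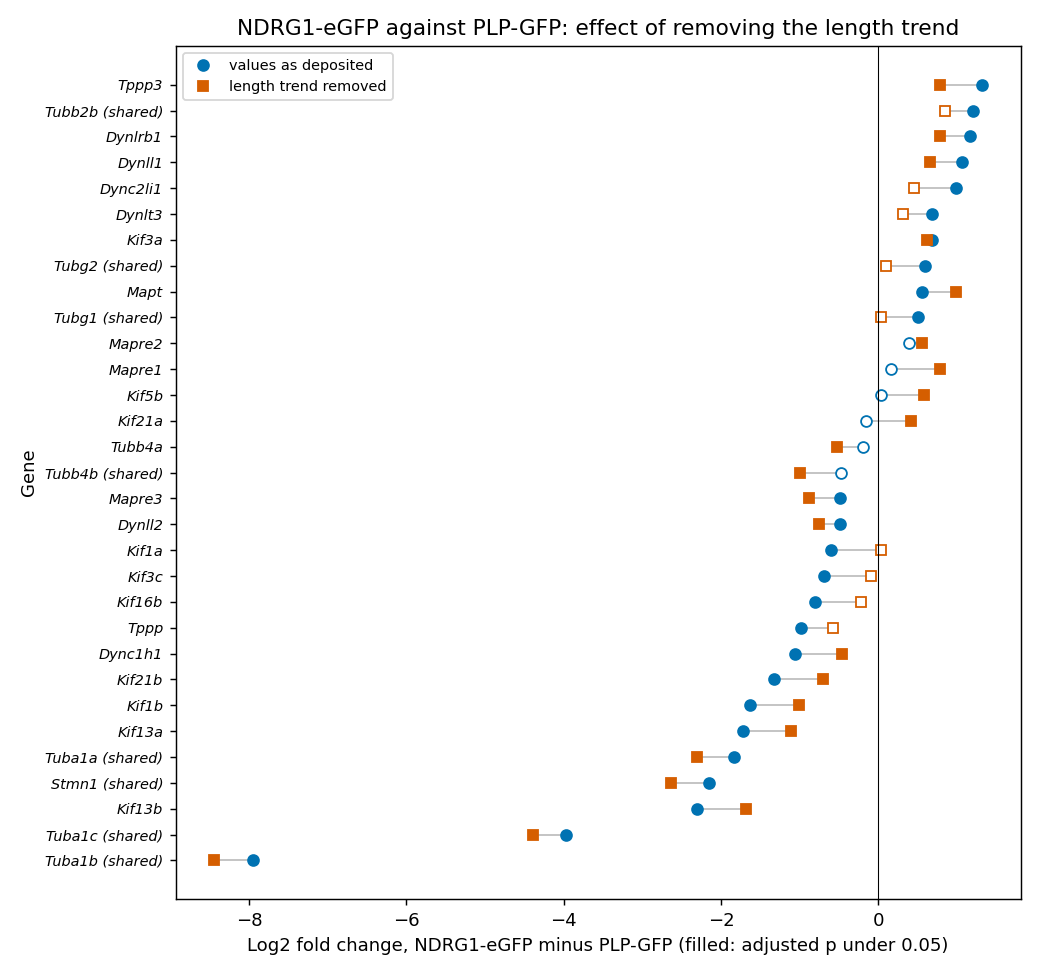
Log2 fold change between NDRG1-eGFP and PLP-GFP for the 31 genes called with the values as deposited (blue circles) or with the length trend removed (orange squares); filled symbols passed the test and grey lines join both values of a gene. Short genes such as Tppp3 move down and long genes such as Kif1a and Kif3c move up, Mapt and Mapre1 move up to 0.99 and 0.78, and Kif13b moves from -2.30 to -1.68.

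Leaving out every shared gene of the table gave 7 higher and 11 lower of the 55 genes with 5% or fewer shared windows between NDRG1-eGFP and PLP-GFP (27.6% and 19.5% of all genes kept). Between PLP-GFP and PDGFRa-GFP it gave 7 and 4 (8.77% and 7.66%), and between NDRG1-eGFP and PDGFRa-GFP 5 and 6 (10.3% and 6.5%). Of the 11 genes called lower in the last comparison, 5 were shared: Tuba1a, Tuba1b, Tuba1c, Tubb4b and Stmn1.

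Genes that work with these proteins were taken from lists of nucleation, tubulin folding, tubulin modification, severing, end and lattice binding, dynactin and dynein adaptors, and kinesin light chains and cargo adaptors. Of 149 listed, 129 were measured. From PLP-GFP to NDRG1-eGFP 32 were higher and 26 lower, from PDGFRa-GFP to PLP-GFP 6 and 13, and from PDGFRa-GFP to NDRG1-eGFP 18 and 15. The shares of all genes in these comparisons were 26.1% and 22.2%, 8.46% and 8.53%, and 10.7% and 10.4%. With the length trend removed those counts were 25 and 18, 3 and 5, and 15 and 10. The median log2 fold change between NDRG1-eGFP and PLP-GFP was 0.12, against 0.08 over all genes.

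The tubulin folding list holds chaperonin (Cct) and prefoldin (Pfdn) genes as well as the tubulin cofactors (Tbc) and Arl2. It had 11 of 20 measured members higher and 1 lower in NDRG1-eGFP than PLP-GFP cells, with a median log2 fold change of 0.52. The counts were 6 and 0 with the length trend removed. All genes gave 26.1% higher and 22.2% lower, and 18.1% and 15.6% with the length trend removed, to which the counts of the other lists below also compare. Tbcb, a folding cofactor of alpha-tubulin, was at 12.72, 12.80 and 13.33 in PDGFRa-GFP, 11.79, 11.56 and 11.56 in PLP-GFP and 13.46, 13.31 and 13.10 in NDRG1-eGFP. It was lowest in all PLP-GFP libraries, and rose by 1.65 ± 0.17 from there to NDRG1-eGFP (adjusted p = 7.37e-05). Arl2, a small GTPase of the same machinery, rose by 1.15 ± 0.13 (adjusted p = 0.000127). Among 15 tubulin modifying enzymes 5 were higher and 3 lower. Atat1, the alpha-tubulin acetyltransferase, was at 12.77 to 12.93 in PDGFRa-GFP, 11.84 to 11.86 in PLP-GFP and 12.81 to 13.04 in NDRG1-eGFP, and rose by 1.08 ± 0.11 from PLP-GFP (adjusted p = 6.55e-05). Ttll7, a polyglutamylase, fell by 0.97 ± 0.15 (adjusted p = 0.000687), and by 0.34 with the length trend removed, which missed the test (adjusted p = 0.133).

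End and lattice binding genes had 3 of 33 higher and 10 lower, with a median of -0.38 (5 and 7 with the length trend removed), against 26.1% and 22.2% of all genes. Clip2, a plus-end tracking protein, was at 12.01, 12.08 and 11.58 in PDGFRa-GFP, 12.12, 12.40 and 12.38 in PLP-GFP and 10, 9.64 and 10.19 in NDRG1-eGFP, and fell by 2.36 ± 0.18 from PLP-GFP to NDRG1-eGFP (adjusted p = 1.01e-05). Tacc1, a centrosomal and microtubule-end protein, fell by 1.45 ± 0.14 (adjusted p = 5.25e-05). The severing enzymes had 1 of 7 higher and 2 lower: Spast, which encodes spastin, fell by 0.91 ± 0.17 (adjusted p = 0.00196) and Fign, fidgetin, by 0.99 ± 0.19 (adjusted p = 0.00221). For Fign the call was lost with the length trend removed (-0.37, adjusted p = 0.279). Of 18 nucleation genes 3 were higher and 2 lower. Haus8, an augmin subunit, rose by 1.26 ± 0.16 (adjusted p = 0.000258) and Mzt2, a small protein of the gamma-tubulin ring, by 1.11 ± 0.23 (adjusted p = 0.00295).

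Dynactin and dynein adaptor genes had 7 of 20 higher and 4 lower in the same comparison, shares near the 26.1% and 22.2% of all genes, and 5 and 4 with the length trend removed. Pafah1b1, which encodes the dynein regulator LIS1, was at 13.44, 13.55 and 13.70 in PDGFRa-GFP, 13.85, 13.97 and 13.76 in PLP-GFP and 12.39, 12.45 and 12.29 in NDRG1-eGFP. It fell by 1.49 ± 0.12 from PLP-GFP to NDRG1-eGFP (adjusted p = 1.02e-05), and by 0.97 with the length trend removed (adjusted p = 0.00084). Capza1, a capping protein of the dynactin filament, fell by 2.70 ± 0.20 (adjusted p = 7.48e-06), but 61.4% of its windows are shared. Kinesin cargo adaptors had 2 of 16 higher and 4 lower. Mapk8ip1, the kinesin adaptor JIP1, was at 15.71 to 15.83 in PDGFRa-GFP, 15.69 to 15.74 in PLP-GFP and 13.94 to 14.40 in NDRG1-eGFP, a log2 fold change from PLP-GFP of -1.53 ± 0.13 (adjusted p = 1.49e-05), and of -1.56 with the length trend removed (adjusted p = 1.16e-05). Plekhm2, a lysosomal kinesin adaptor, rose by 1.09 ± 0.17 from PDGFRa-GFP to PLP-GFP (adjusted p = 0.00527) and fell by 1.90 ± 0.17 from PLP-GFP to NDRG1-eGFP (adjusted p = 2.57e-05).

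From PDGFRa-GFP to PLP-GFP, 5 of 20 genes on the tubulin folding list fell and none rose, against 8.53% and 8.46% of all genes. Tbcb fell by 1.32 ± 0.17 (adjusted p = 0.00229) and Arl2 by 0.54 ± 0.13 (adjusted p = 0.0253). With the length trend removed 1 fell and none rose, against 4.25% and 3.58% of all genes. Arl2 then lost its call (-0.14, adjusted p = 0.502). Atat1 fell by 1.01 ± 0.11 (adjusted p = 0.000904). From PDGFRa-GFP to NDRG1-eGFP, Clip2 fell by 1.95 ± 0.18 (adjusted p = 4.83e-05), Mapk8ip1 fell by 1.59 ± 0.13 (adjusted p = 1.23e-05), Pafah1b1 by 1.19 ± 0.12 (adjusted p = 6.44e-05) and Fign by 1.12 ± 0.19 (adjusted p = 0.00318; -0.71, adjusted p = 0.0752, with the length trend removed), while Haus8 rose by 0.77 ± 0.16 (adjusted p = 0.00919).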

How the data were processed

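RNA from 9 sorted-cell libraries was measured, 3 for each reporter. Per the labels' protocols, RNA and DNA came from the same pellets. BWA, DESeq2 1.2.5 and mm10 appear, without their roles, per the submitters' processing notes. The deposited values were normalized by the authors by a step not given in the sources used here, and their scale, also not given, was read as log2. They have the same median (10.57) and the same highest value (21.87) in each library, for 11315 genes, of which 17 rows carry dates in place of symbols. Read depth is unknown, and precision rests on 3 libraries a group.

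A pseudocount had been planned for linear values. Since the deposited values were read as logarithms, limma 3.58.1 (R 4.3.3, trend option) was fitted to them as they stood, with all 9 libraries, 1 term a group, two-sided tests and Benjamini-Hochberg adjustment over all genes. A filter asking for 1 or more in 3 or more libraries removed no gene. The fit was also run on simulated data. These held far fewer changed genes, no length trend and no library that stands apart, so they are no check on the fit here. Lengths and shared 50-base windows came from GENCODE M21, where 11271 symbols matched. Shared means over 5% of windows also in a gene that does not overlap. Length trends were removed by a loess curve of span 0.3 per library.

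The genes and lists were chosen with earlier results of these data known. Named one by one are every tubulin, Tppp, Map, Mapt, Mapre and Stmn gene, motors called (at most 8 highest and 8 lowest a comparison) or among the 5 with the highest mean, and at most 2 called genes of each other list per comparison. Alternatives were recentring by median ratio or upper quartile, no filter, a mean of 8 or more, 5 added on the linear scale, a replicate block, only the 2 groups compared, leaving out each library, the length trend removed, shared genes left out, and a log2 fold change of at least 1.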

Additional observations from a re-analysis of the deposited data

How the results depend on the processing

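Counts of the 66 genes called kept within 1.5 times of the reported ones under the upper quartile, no filter, a mean of at least 8 and 5 added on the linear scale, in all 3 comparisons. The upper quartile moved libraries by only -0.000134 to 0.000181, and the filter had removed no gene. Those settings therefore nearly repeat the reported fit and are no check on it. Requiring a log2 fold change of at least 1 left 4 higher and 9 lower for NDRG1-eGFP against PLP-GFP, 4 and 1 for PLP-GFP against PDGFRa-GFP, and 2 and 5 for NDRG1-eGFP against PDGFRa-GFP, by its own construction. Median ratio recentring, which moved libraries by -0.0481 to 0.0955, left 4 higher for NDRG1-eGFP against PDGFRa-GFP. Fitting only the 2 groups compared left 3 higher for PLP-GFP against PDGFRa-GFP and 2 for NDRG1-eGFP against PDGFRa-GFP, with fewer libraries in the fit. With the length trend removed 3 were higher for PLP-GFP against PDGFRa-GFP. Leaving out shared genes left 6 lower for NDRG1-eGFP against PDGFRa-GFP, with fewer genes tested. Both together, chosen after seeing the data, left 8 lower for NDRG1-eGFP against PLP-GFP, 3 higher for PLP-GFP against PDGFRa-GFP and 3 lower for NDRG1-eGFP against PDGFRa-GFP. Shares of all genes were counted only for the reported fit, with the length trend removed, and with shared genes left out.

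Leaving out 1 library at a time gave 8 to 9 higher and 14 to 17 lower for NDRG1-eGFP against PLP-GFP, 1 to 9 higher and 1 to 9 lower for PLP-GFP against PDGFRa-GFP, and 1 to 13 higher and 8 to 19 lower for NDRG1-eGFP against PDGFRa-GFP. Kif1a turned from -0.60 to 0.04 between NDRG1-eGFP and PLP-GFP with the length trend removed, and to 0.04 with shared genes also left out. Between NDRG1-eGFP and PDGFRa-GFP it turned to 0.35 with the length trend removed, and Map2, at 0.03 with all libraries, ran from -0.48 to 0.32 over the fits that left out 1 library, the lowest without PDGFRa-GFP replicate 3. Apart from the fits whose construction is named, the cause was not tested.

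The replicate numbers did not pair the libraries: correlations of same-numbered libraries' deviations from their group means ran from -0.234 to 0.0941. A replicate block gave 9 higher and 15 lower for NDRG1-eGFP against PLP-GFP, 2 and 4 for PLP-GFP against PDGFRa-GFP, and 3 and 10 for NDRG1-eGFP against PDGFRa-GFP. No result met the rules for a closer look, since groups of 3 are too small for the test of a library that stands apart. Depth is unknown, so values near the bottom of the table, such as Tuba1b in NDRG1-eGFP cells, have unknown counting error.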
